A study of Mus musculus with 21 samples.

Results

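Conventional dendritic cells are the antigen-presenting cells that prime T cells. They arise from precursors under the growth factor receptor encoded by *Flt3* and fall into type 1 cells (cDC1), which depend on the transcription factor IRF8 and cross-present antigen to CD8+ T cells, and type 2 cells (cDC2), which mainly present on MHC class II to CD4+ T cells. On activation both types mature, move to lymph nodes along the CCR7 pathway and express a shared set of genes, among them *Fscn1* and the chemokine gene *Ccl22*.

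Here 238 such cells were described, of 51511 cells sequenced from the tumor microenvironment (TME) and from unchallenged lung. They were chosen by the unique molecular identifiers (UMIs, each standing for 1 captured RNA molecule) of single genes in each cell. A cell was taken if it carried a UMI of *Flt3* and of *Cd74*, which encodes the invariant chain of MHC class II, and of at least 1 of *Xcr1*, *Clec9a*, *Cd209a*, *Ccl22* and *Fscn1*, with no UMI of *C1qa* (macrophages), *Cd79a* (B cells), *Trac* (T cells), *Nkg7* (NK cells) or *Col1a2* (fibroblasts). Since these 12 genes selected the cells, their levels are given as a description only.

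The study transplanted fragments of MT-ret mouse melanoma, which carries the RET oncogene under a metallothionein promoter, under the skin of mT/mG mice, male and female, removed the primary tumors and collected the lung metastases that followed. The host carries the red fluorescent protein tdTomato in its own cells with no Cre present, and the graft does not, so TME libraries are sorted living tdTomato+ cells and the melanoma (MM) libraries hold tdTomato- cells. The unchallenged lung served as control without a tumor. Some sorts also removed CD45+ cells, which include dendritic cells, and the gate of a single library was not given in the sources used here. Replicates 1 to 3 of either tumor site stand in the labels as 1 sample. Their cells carry 3 library names in the primary tumor and 2 in the metastasis, with none for a first metastasis replicate, and were summed here. Primary tumors lie in another organ than the lung although a label calls their tissue lung, and cell suspensions had been frozen before sorting. Library names carry a mouse number, which differs between the primary tumor and lung libraries tested against each other, and p-values measure the spread between these libraries.

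Library names with identical cells were counted once, which left 12 libraries of 303 to 25966 cells and 1777036 to 53506609 UMIs. The share of cells with a UMI of *Ptprc*, the gene of CD45, was 36.7 to 80.4% in the 4 unchallenged lungs and 75.4 and 77.5% in primary tumor replicates 1-3 and 4, but 0.660 and 0.0839% in primary tumor replicates 5 and 6. In the metastases it was 80.3, 75.04, 2.26 and 29.5% in replicates 1-3, 4, 5 and 6. Of the barcode sequences, 249 occurred in more than 1 kept library name, in 499 cells. The dendritic cells of unchallenged lung replicate 6 stood apart in the markers of other lung cells. In CPM, the UMIs of a gene or list per 1000000 UMIs of the same cells, they carried 7115 of 4 club cell markers, 3573 of 6 neutrophil markers, 1962 of 7 alveolar macrophage markers and 984 of 5 ciliated cell markers, where the other 3 lungs had at most 2517, 210, 153 and 127 CPM. Of their 2887 UMIs of the club cell gene *Scgb1a1*, 1793 lay in 13 cells with genes of 2 of the classes set out below. Other cells of that library carried such RNA too. *Scgb1a1* measured 5612 CPM in its dendritic cells and 5266, 2690 and 12823 CPM in its endothelial cells, macrophages and B cells. The ciliated cell gene *Sec14l3* measured 262 CPM against 431, 567 and 496 CPM.

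Most of the dendritic cells came from unchallenged lung. Its replicates 1, 4, 5 and 6 held 10, 14, 29 and 146, primary tumor replicates 1-3 and 4 held 12 and 17, and metastasis replicates 1-3, 4, 5 and 6 held 6, 2, 1 and 1. Primary tumor replicates 5 and 6 held none of 303 and 2383 cells, which allows shares of up to 0.990% and 0.126%, and only 2 cells in each carried a *Ptprc* UMI. Among cells with a *Ptprc* UMI, dendritic cells made up 1.64, 0.527, 0.762 and 0.652% in the lungs, 2.38 and 0.579% in primary tumor replicates 1-3 and 4, and 0.794, 0.202, 0.855 and 0% in the metastases. These shares overlapped between all 3 tissues and depend on the gate. The 4 MM libraries mapped to a sample held no cell that met the rule, in 638, 11310, 30419 and 6481 cells. A further library name that reads MM, mapped to no sample and not used, held the same 1036 cells as metastasis replicate 6, so which tissue fraction that library and its 1 dendritic cell came from is in doubt. Counting intervals and limits at 0 cover counting error only.

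**Figure D1:**
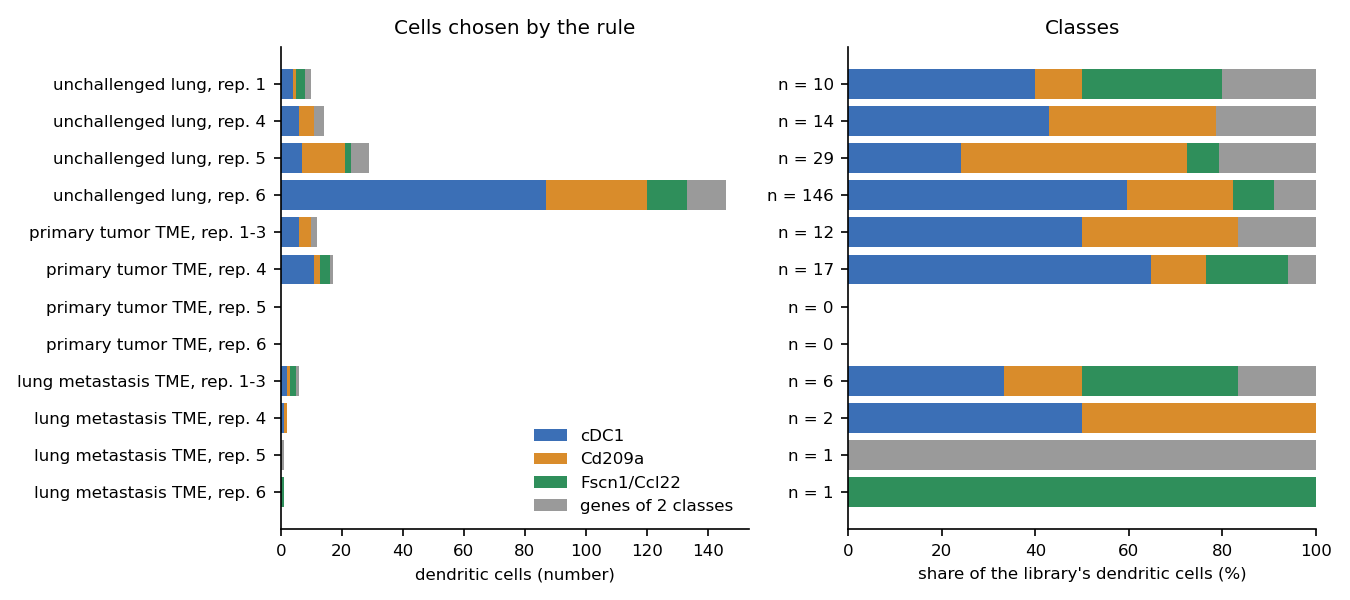
Dendritic cells per library, as a number (left, horizontal axis) and as the share of each class in percent (right), with 1 bar per library and colors for the classes. Unchallenged lung replicate 6 holds 146 of the 238 cells, primary tumor replicates 5 and 6 hold none, and the 4 metastasis libraries hold 10 together.

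The gate rests on few molecules. Of 917 cells with a *Flt3* UMI, 806 also had *Cd74*, 348 of these carried a positive gene, and 110 were then left out, 79 of them for *C1qa*. A single excluding UMI decided 48 of those. Among the chosen cells 148 had exactly 1 *Flt3* UMI and the highest had 7, while 65 entered with 1 *Flt3* UMI and 1 UMI over the 5 positive genes. Just outside, 312 cells with *Flt3* and *Cd74* had neither a positive nor an excluding gene, at a median of 2144.5 UMIs per cell against 3517.5 in the chosen cells and 3861 in the excluded ones. Of the chosen cells 47 lay above the 95th percentile of UMIs in their library, where droplets with more than 1 cell gather, and no doublet caller was run.

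By the positive genes 124 cells were cDC1 (*Xcr1* or *Clec9a*), 61 were *Cd209a* cells, 24 were *Fscn1*/*Ccl22* cells and 29 carried genes of 2 classes. *Xcr1* encodes the receptor for the chemokine XCL1 and *Clec9a* a lectin that binds dead cells, and 43 of the cDC1 had both, 50 *Xcr1* alone and 31 *Clec9a* alone. *Cd209a*, a lectin of cDC2 and of cells derived from monocytes, was found with a cDC1 gene in 20 cells. *Fscn1* encodes the actin bundler fascin and *Ccl22* a ligand of CCR4. Both were present in 11 of the 24 cells, *Fscn1* alone in 7 and *Ccl22* alone in 6. In unchallenged lung replicate 6 the levels were 457 CPM of *Xcr1* and 239 CPM of *Clec9a* in cDC1, 606 CPM of *Cd209a* in *Cd209a* cells, and 3168 CPM of *Ccl22* and 995 CPM of *Fscn1* in *Fscn1*/*Ccl22* cells. The class median depth was 3190, 4080, 2633 and 5994 UMIs in the order above, so cells of 2 classes were the deepest.

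The label was then checked against markers of plasmacytoid dendritic cells, which also carry *Flt3* and *Cd74* and secrete type I interferon. Of the 238 cells, 211 had a UMI of 0 to 2 of 8 such markers, 12 had 3, 3 had 4 and 12 had 5 or more. These last 12 cells went against the label. The 8 markers chose them, so their levels there are no result, and genes outside the 8 were looked at. *Spib*, a transcription factor gene of plasmacytoid cells, had a UMI in 10 of the 12 and in 3 of the other 226 cells, and *Runx2*, another such gene, in 11 and 33. Conversely *Naaa*, a hydrolase gene high in cDC1, was found in none of the 12 and in 151 of the 226, and *Zbtb46*, a transcription factor gene of conventional dendritic cells, in 1 and 51. *Irf8*, which both kinds of cell need, was found in all 12. The 12 were deep, at a median of 10036 UMIs against 3367.

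Where these 12 cells sat is uneven. Of the 12, 5 were counted as cDC1 by *Clec9a* alone, 2 as *Cd209a* cells and 5 as cells of 2 classes, with none carrying *Xcr1*. In unchallenged lung replicate 4 they were 4 of the 6 cDC1, and there the 8 markers reached 11465 CPM in cDC1 against 445 and 598 CPM in replicates 5 and 6. *Clec9a* without *Xcr1* therefore marked a mixed set. Among cDC1, the cells with *Xcr1* carried a median of 10 of 19 genes of the cDC1 programme and the cells with *Clec9a* alone 6. Without the cells with plasmacytoid markers, the 26 remaining cells with *Clec9a* alone carried a median of 7.

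**Figure D2:**
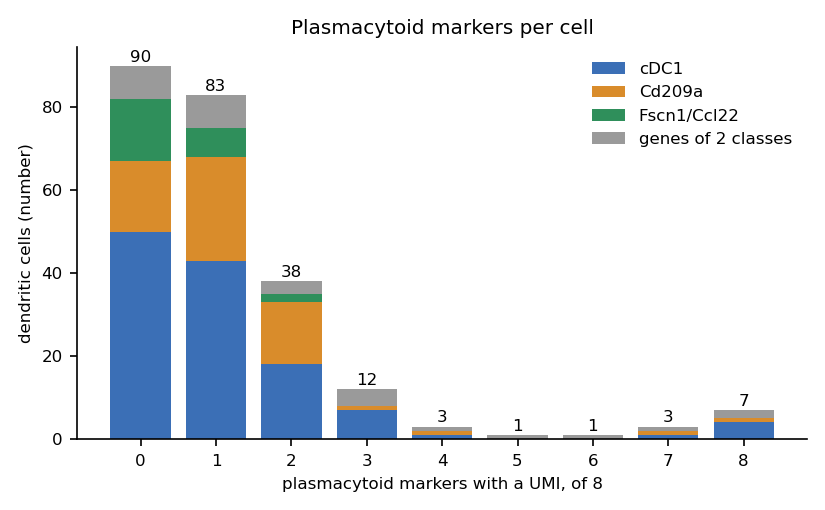
Number of the 8 plasmacytoid markers with a UMI in a cell (horizontal axis) and number of dendritic cells (vertical axis), stacked by class. Of the 238 cells 211 carry 0 to 2 markers, and a set of 12 cells carries 5 or more.

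The gene lists described next hold none of the 12 genes of the rule. Some classes of a library rest on few cells, and the only *Cd209a* cell of metastasis replicate 1-3 and 4 of the 6 cDC1 of lung replicate 4 were cells with plasmacytoid markers. The summed cDC1 programme of 19 genes ran from 5153 to 12615 CPM in cDC1 of 8 libraries, above the 433 to 4365 CPM of *Cd209a* cells in 8. The cDC2 programme of 20 genes ran from 428 to 2700 CPM in cDC1 and from 3092 to 8596 CPM in *Cd209a* cells. The mature programme of 35 genes ran from 14182 to 25570 CPM in *Fscn1*/*Ccl22* cells of 6 libraries, against 961 to 1779 CPM in cDC1 and 479 to 4045 CPM in *Cd209a* cells. No library of one class reached the range of the other in these 4 pairings. In *Fscn1*/*Ccl22* cells the cDC1 programme spread from 842 to 6732 CPM and the cDC2 programme from 481 to 8528 CPM, overlapping both other classes.

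**Figure D3:**
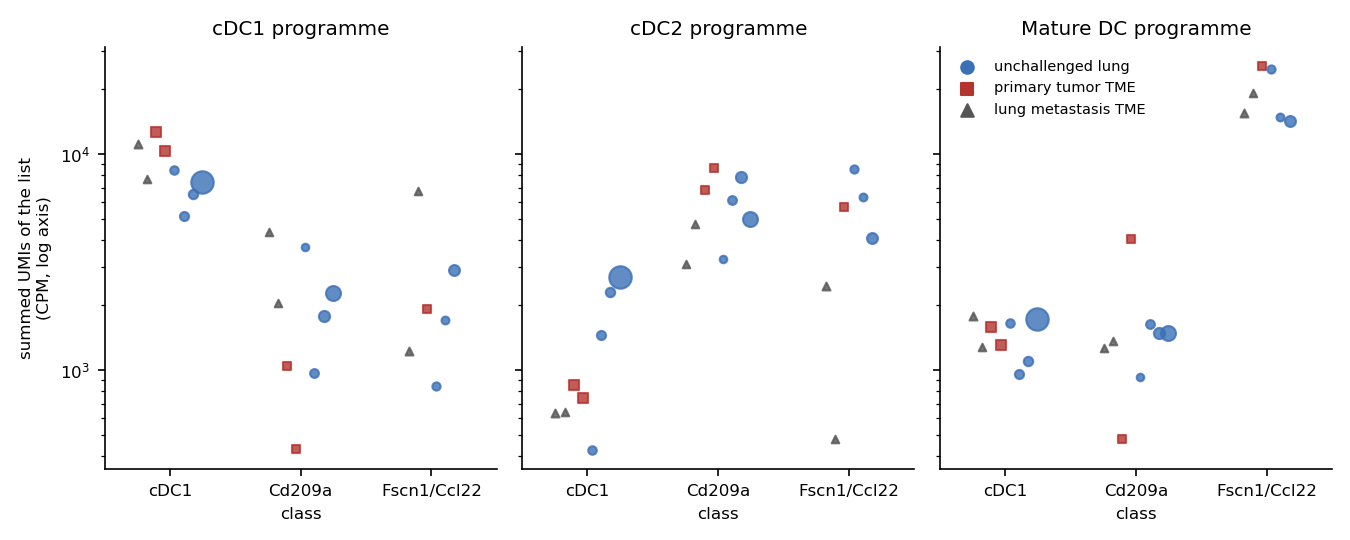
Summed UMIs of 3 gene lists in CPM (vertical, log axis) for each class of dendritic cell, with 1 point per library, larger for more cells (circles, unchallenged lung, squares, primary tumor TME, triangles, metastasis TME). The mature programme lies at 14182 CPM or more in all 6 libraries with *Fscn1*/*Ccl22* cells and at 4045 CPM or less in cDC1 and *Cd209a* cells.

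In single cells, a *Fscn1*/*Ccl22* cell carried a median of 16 of the 35 mature genes (range 2 to 30), where both cDC1 and *Cd209a* cells carried 4. After each cell was thinned to 1000 UMIs the medians were 9, 1 and 1, and 95.5% of *Fscn1*/*Ccl22* cells had 3 or more of the genes against 21.3% of cDC1 and 14.0% of *Cd209a* cells. Before thinning, the 7 cells that joined a cDC1 gene with *Fscn1* or *Ccl22* carried a median of 12 of 19 cDC1 genes and 8 of 35 mature genes. The 20 that joined a cDC1 gene with *Cd209a* carried 5 cDC1 genes and 8 of 20 cDC2 genes. Of these 20 cells, 5 were cells with plasmacytoid markers, and cells of 2 classes were the deepest.

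The question of how cDC1 and *Cd209a* cells differ beyond their selecting genes was taken first, since 3 unchallenged lungs held at least 5 cells of each. *Irf8*, the transcription factor gene (GRCm38 chromosome 8, 120736358 to 120756694), stood at 3513, 1625 and 1479 CPM in the cDC1 of replicates 4, 5 and 6 and at 83.0, 637 and 364 CPM in their *Cd209a* cells. In replicate 4, 4 of the 6 cDC1 were cells with plasmacytoid markers, all of which carried *Irf8*. *Naaa* stood at 348, 774 and 1206 CPM against 41.5, 237 and 382 CPM. In each replicate the cDC1 value was the higher of the pair, while *Naaa* of cDC1 in replicate 4, the library with the plasmacytoid markers, lay below *Naaa* of *Cd209a* cells in replicate 6.

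*Wdfy4*, which cDC1 need for cross-presentation of antigen from cells, measured 149, 929 and 610 CPM in cDC1 against 83.0, 75.5 and 112 CPM. *Ppt1*, a lysosomal thioesterase gene, measured 232, 890 and 656 CPM against 125, 75.5 and 121 CPM. *Tlr3*, the sensor of double-stranded RNA, measured 49.7, 155 and 169 CPM, with 1 UMI in all *Cd209a* cells of these lungs. *Itgae*, the gene of CD103, measured 82.8, 348 and 138 CPM and had no UMI in those *Cd209a* cells. The cDC1 value was the higher of each pair. For *Tlr3* in replicate 4 it was 3 UMIs, below the 62.3 CPM that no UMI allows in the *Cd209a* cells there, so no difference was detectable in that pair.

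The *Cd209a* cells led in genes of cDC2 and of monocytes. *S100a4*, a calcium-binding protein gene, stood at 1744, 2276 and 1269 CPM in *Cd209a* cells and at 0, 561 and 298 CPM in cDC1. *Ms4a6c* stood at 1059, 1262 and 877 CPM against 33.1, 232 and 258 CPM, and the lectin gene *Mgl2* at 166, 259 and 345 CPM against 0, 19.3 and 27.6 CPM. For each of the 3 genes every *Cd209a* value lay above every cDC1 value.

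Whether all *Cd209a* cells are cDC2 could not be told from these genes. Summed over 9 monocyte markers, *Cd209a* cells carried 5107, 4812 and 4057 CPM in replicates 4, 5 and 6 and cDC1 4225, 2670 and 1930 CPM. In replicate 4, 4 of the 6 cDC1 were cells with plasmacytoid markers, and 11 of the 12 such cells carried *Ly6c2*, one of the 9 markers. *Ccr2*, another of the 9, alone measured 1334 CPM in *Cd209a* cells of replicate 6. *Ly6c2*, a surface protein gene of inflammatory monocytes, was found in 9 of the 33 *Cd209a* cells of replicate 6 and *F13a1*, a monocyte and macrophage gene, in 8. *Clec10a*, a cDC2 lectin, had 2 UMIs in those 33 cells, but 27 UMIs in the 14 *Cd209a* cells of replicate 5. The part of monocyte-derived cells in the comparison was not tested.

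Across all genes, edgeR's quasi-likelihood test with the library as a term was fitted on UMI counts summed per class and library with at least 5 cells. The intended minimum of 10 left only replicate 6 with both classes. Of 1827 genes tested none was called at an adjusted p below 0.05 (background 0%), 145 had an unadjusted p below 0.05, 76 of them higher in cDC1, and DESeq2 called none. The log2 fold changes of cDC1 over *Cd209a* cells were 2.64 ± 0.58 (SE) for *Irf8* (edgeR adjusted p = 0.219), 2.02 ± 0.34 for *Naaa* (edgeR adjusted p = 0.152), -3.74 ± 0.63 for *Mgl2* (edgeR adjusted p = 0.152) and -2.72 ± 0.75 for *S100a4* (edgeR adjusted p = 0.380). For *Tlr3* and *Itgae*, nearly without UMIs on one side, the fitted change has no firm size. The filter on low counts kept 15 of 19 cDC1 and 17 of 20 cDC2 programme genes. With every member counted, on the mean over the 3 lungs of the difference in log2(CPM + 50), 16 of 19 cDC1 genes were higher in cDC1, at a median of 1.08, and 2 of 20 cDC2 genes, at a median of -0.62. Of all 13935 genes with a UMI 48.7% were higher.

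Leaving out the 12 cells with plasmacytoid markers, a setting added after seeing the data, changed this result. Then 59 of 1668 genes were called, 30 higher in cDC1, with replicates 5 and 6 alone holding both classes. The pairs were few, and the fit shares the spread across genes to a degree not measured here. The small adjusted p-values below are therefore no measure of how well a difference repeats between libraries. *Irf8* had a log2 fold change of 2.36 ± 0.39 (edgeR adjusted p = 4.89e-07), *Naaa* of 1.69 ± 0.40 (edgeR adjusted p = 0.00140), *Wdfy4* of 2.97 ± 0.46 (edgeR adjusted p = 1.05e-07), *Ms4a6c* of -2.01 ± 0.40 (edgeR adjusted p = 0.000103) and *S100a4* of -2.05 ± 0.37 (edgeR adjusted p = 1.07e-05). Leaving out unchallenged lung replicate 4, 5 or 6 in turn gave 7, 22 or 35 called genes, so the calls rose in those settings too. Why they rose was not tested.

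Immediate early and heat shock genes, which tissue digestion can induce, leaned to *Cd209a* cells. Of 16 list members 2 were higher in cDC1 on the same scale, and the median was -1.16. The fit tested 14, of which 8 had an unadjusted edgeR p below 0.05. *Jun* measured 1993, 1608 and 793 CPM in *Cd209a* cells against 1210, 348 and 469 CPM in cDC1, and *Hspa1a*, an inducible chaperone gene, 810, 712 and 168 CPM against 49.7, 0 and 132 CPM. In both the *Cd209a* value was the higher of each pair, and none of the 14 was called after adjustment.

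Replicate 6 of unchallenged lung, with 87 cDC1, 33 *Cd209a* and 13 *Fscn1*/*Ccl22* cells, let the 3 classes be set side by side in 1 library. One library gives no test, and a gene counted as different if log2(CPM + 50) differed by 1 or more, which understates low genes. By this measure 52 of 3629 genes (1.43%) were higher in cDC1 than in *Cd209a* cells and 59 (1.63%) lower. These genes averaged 50 CPM or more over the classes. Without that filter, a setting added after seeing the data, the counts were 83 (0.625%) and 77 (0.58%) of 13283. With no filter 18 of 19 cDC1 programme genes were higher in cDC1, 14 of them past 2-fold, at a median of 1.65. The scavenger receptor gene *Cd36* (371 against 83.9 CPM), the adhesion gene *Cadm1* (221 against 28.0 CPM), *Rab7b* (233 against 37.3 CPM) and *Id2*, a transcription regulator that dendritic cells need (1095 against 308 CPM), were among them. In the summed cells of all other libraries 17 of the 19 were higher, at a median of 1.68.

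Beyond the lists, *Cst3*, the cystatin C gene, measured 10728 CPM in cDC1 and 3209 CPM in *Cd209a* cells, and *Sept3*, a septin gene, 199 and 0 CPM. *Lyz2*, the lysozyme gene of myeloid cells, went the other way at 3114 and 8245 CPM, and *Fn1*, the fibronectin gene, measured 122.7 and 765 CPM. The chemokine gene *Ccl17* measured 258 CPM in cDC1 and 9.33 CPM in *Cd209a* cells, with 84 UMIs in 6 of the 87 cDC1, although it stood in the cDC2 list. *Bpifa1* (1561 against 140 CPM) and *Scgb3a1* (307 against 28.0 CPM), secreted by club cells, were among the leading genes of cDC1 too. Of the UMIs in cDC1, 493 of 509 for *Bpifa1* lay in 8 of the 21 cDC1 with *Clec9a* alone and 73 of 100 for *Scgb3a1* in 5 of them. *Sftpc*, an alveolar type 2 surfactant gene, went the other way at 672 CPM in cDC1 and 1530 CPM in *Cd209a* cells, as did the ciliated cell gene *Sec14l3* at 212 and 457 CPM. The part of epithelial RNA in the differences between the classes was not tested.

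Against cDC1 of replicate 6, the *Fscn1*/*Ccl22* cells had 424 of 3629 genes (11.7%) at least 2-fold higher and 342 (9.42%) at least 2-fold lower. Against *Cd209a* cells 428 (11.8%) were higher and 410 (11.3%) lower. The 13 cells gave 27147 UMIs, against 325981 in cDC1 and 107213 in *Cd209a* cells, so that 1 UMI is 36.8 CPM and the coarse counting enters these numbers. With no filter on the mean level 606 (4.71%) were higher and 590 (4.59%) lower than in cDC1, of 12867, and 687 (6.2%) and 791 (7.13%) than in *Cd209a* cells, of 11087. Of the 35 mature programme genes, all counted, 30 were then higher than in cDC1, 24 of them past 2-fold, at a median of 1.68 against -0.09 over all genes. Against *Cd209a* cells 31 were, 26 of them past 2-fold. The 11 *Fscn1*/*Ccl22* cells of 5 other libraries gave 34 of 35 against cDC1, at a median of 2.78.

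*Ccr7*, the receptor that guides dendritic cells to lymph nodes (chromosome 11, 99144196 to 99155077), had 16 UMIs in 8 of the 13 cells of replicate 6, which is 589 CPM (95% interval 337 to 957). It had 1 UMI in 87 cDC1, or 3.07 CPM, and none in 33 *Cd209a* cells, and 1.34% of 673 endothelial cells of that library had one (7.35 CPM, at a median of 1567 UMIs per cell against 1926 in *Fscn1*/*Ccl22* cells). In the other libraries it reached 1409 CPM in 10 of 11 *Fscn1*/*Ccl22* cells and had no UMI in 37 cDC1 or 28 *Cd209a* cells. *Marcks*, a regulator of the actin cortex, measured 2358, 583 and 382 CPM in *Fscn1*/*Ccl22* cells, cDC1 and *Cd209a* cells of replicate 6.

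*Relb*, the alternative NF-kappaB subunit, measured 626 CPM in *Fscn1*/*Ccl22* cells, 15.3 in cDC1 and 0 in *Cd209a* cells of replicate 6. *Socs2*, a brake on cytokine signals, measured 921, 15.3 and 46.6 CPM, and *Cd83*, a maturation marker that stabilizes MHC class II, 663, 49.1 and 37.3 CPM. All 3 were also higher in the other libraries, at 635, 496 and 496 CPM in *Fscn1*/*Ccl22* cells against at most 51.2 CPM in the other 2 classes. *Il4i1*, an amino acid oxidase that restrains T cells, measured 184 CPM on 5 UMIs in replicate 6 and 712 CPM elsewhere, with 1 UMI in all cDC1 and none in *Cd209a* cells.

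The chemokine gene *Ccl5* measured 921 CPM in *Fscn1*/*Ccl22* cells of replicate 6 and 1982 CPM elsewhere, against 114 and 27.9 CPM in cDC1. *Apol7c*, of the apolipoprotein L family, measured 847 CPM but in 3 of the 13 cells, and 1084 CPM in 6 of 11 cells elsewhere. *Fabp5*, a fatty acid binding protein gene, was likewise found in 3 of 13 and 5 of 11 cells at 884 and 1409 CPM. These genes were thus carried by a minority of cells in replicate 6, unlike *Marcks*, found in 13 of 13. *Tmem123*, *Etv3*, *Tbc1d4* and *Basp1* measured 2173, 1105, 958 and 995 CPM, against 70.6, 49.1, 49.1 and 89.0 CPM in cDC1. *Cd86*, a costimulation gene, and *Cd274*, the gene of the inhibitory ligand PD-L1, gave too few molecules in replicate 6 to compare, with 1 and 2 UMIs, and *Il12b*, a subunit of interleukin-12, had 2 UMIs there and 16 in the other libraries.

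MHC class II transcripts were lower in the same cells than in cDC1. The list of 11 genes, which leaves out *Cd74*, summed to 2645 to 6888 CPM in *Fscn1*/*Ccl22* cells of 6 libraries, against 6838 to 24716 CPM in cDC1 of 8 and 2183 to 48396 CPM in *Cd209a* cells of 8. The *Fscn1*/*Ccl22* cells lay below the cDC1 of the same library wherever both were present, and their ranges met at 1 cDC1 of metastasis replicate 4. In replicate 6, with all 11 genes counted, 1 was higher in *Fscn1*/*Ccl22* cells than in cDC1, 5 were at least 2-fold lower, and the median was -0.59. In the other libraries 2 of 11 were higher and 8 at least 2-fold lower, at a median of -1.30, where 38.1% of all 11323 genes with a UMI were higher and 5.25% at least 2-fold lower, at a median of -0.13. Against *Cd209a* cells of replicate 6, 3 of 11 were higher and 2 at least 2-fold lower. The median there was -0.31, near the -0.25 over all genes with a UMI, of which 38.4% were higher. Among genes averaging 50 CPM or more, however, 2 of 8 class II genes were higher, at a median of -0.53. Of all 3629 such genes 49.4% were higher, at a median of -0.01. Against *Cd209a* cells of the other libraries 1 of 11 was higher and 9 at least 2-fold lower, at a median of -1.60.

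The classical chains form the peptide-binding molecule. In *Fscn1*/*Ccl22* cells, cDC1 and *Cd209a* cells of replicate 6, *H2-Aa* measured 2468, 3727 and 2071 CPM, *H2-Ab1* 1584, 3789 and 2173 CPM and *H2-Eb1* 1989, 2190 and 1101 CPM. *H2-Aa* and *H2-Eb1* were therefore no lower in *Fscn1*/*Ccl22* cells than in *Cd209a* cells of that library, whereas in the other libraries all 3 chains were lower there, *H2-Aa* for example at 1704 CPM against 5199 CPM. *Ciita*, the transactivator of the class II genes (chromosome 16, 10480059 to 10528418), had no UMI in *Fscn1*/*Ccl22* cells of replicate 6, which allows 111 CPM, against 175 CPM in cDC1 and 168 CPM in *Cd209a* cells. In the other libraries it had 1 UMI, or 15.5 CPM, against 554 and 283 CPM.

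*H2-DMa*, a chain of the editor that loads peptides, also had no UMI in replicate 6 and 31.0 CPM elsewhere, where cDC1 had 448 and 489 CPM. Its partner *H2-DMb1* measured 111 CPM on 3 UMIs and 15.5 CPM on 1 UMI, against 380 and 447 CPM. *H2-Ob*, a chain of the inhibitor of that editor, had no UMI and 1 UMI, against 141 and 112 CPM in cDC1. *Ctss*, the protease that trims the invariant chain, was closer at 626 and 790 CPM against 699 and 670 CPM. MHC class I presentation genes did not follow, as 10 of 12 were higher in *Fscn1*/*Ccl22* cells than in cDC1 of replicate 6, at a median of 0.24. Of all genes with a UMI 36.5% were higher. Among genes averaging 50 CPM or more, 9 of 10 class I genes were higher, also at a median of 0.24, and 1 was past 2-fold. Of all 3629 such genes 55.5% were higher, at a median of 0.11, so the class I shift was small.

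**Figure D4:**
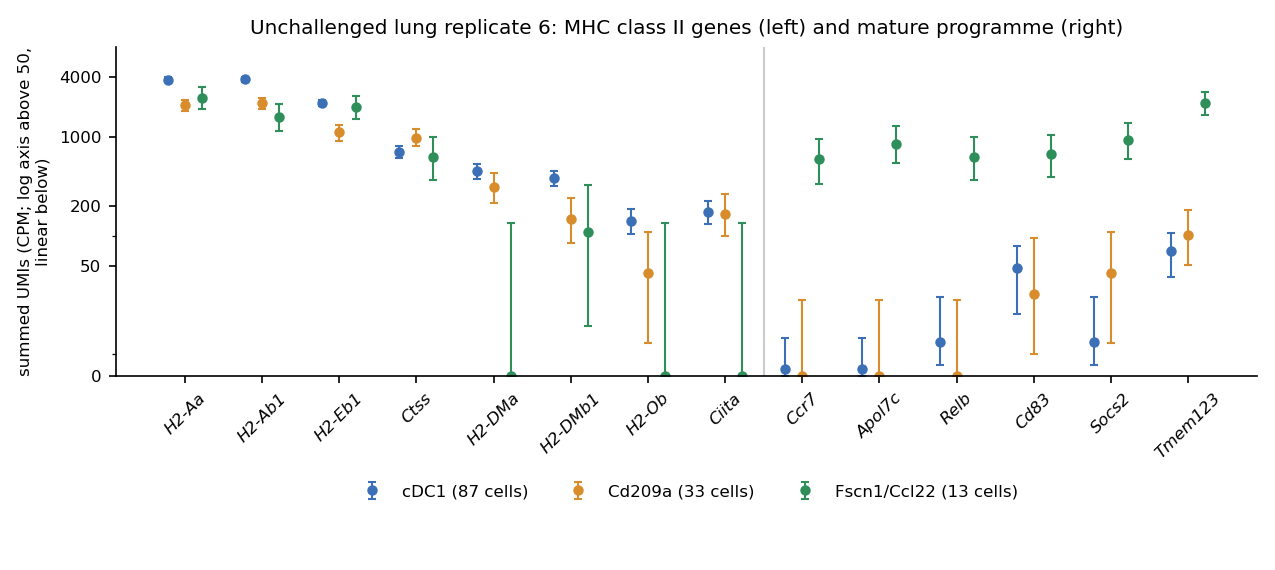
MHC class II genes (left) and mature programme genes (right) in the 3 classes of unchallenged lung replicate 6, in CPM on an axis that is linear below 50 and log above, with exact 95% Poisson intervals that cover counting error only. *Ccr7*, *Relb* and *Socs2* stand out in *Fscn1*/*Ccl22* cells, while *Ciita*, *H2-DMa* and *H2-Ob* have no UMI there.

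The H2 genes of class II lie together on mouse chromosome 17 and share promoter elements bound by the complex that CIITA joins, one of which is the Y box, an inverted CCAAT. The 120 bases before the annotated start of 4 class II genes, a classical pair and an accessory pair, are shown because most genes of the list were lower together in *Fscn1*/*Ccl22* cells. They were read from GRCm38.p6 in the direction of the gene with RefSeq starts, 5′ to 3′, and the letters ATTGG are in capitals.
H2-Aa: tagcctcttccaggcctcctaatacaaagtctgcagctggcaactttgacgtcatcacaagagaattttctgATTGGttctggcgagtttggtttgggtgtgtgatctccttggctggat
H2-Eb1: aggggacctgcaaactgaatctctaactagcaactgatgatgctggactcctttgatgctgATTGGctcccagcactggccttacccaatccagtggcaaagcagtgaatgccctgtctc
H2-DMb1: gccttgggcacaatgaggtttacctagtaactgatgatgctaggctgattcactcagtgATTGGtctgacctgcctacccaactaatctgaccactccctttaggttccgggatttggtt
H2-Ob: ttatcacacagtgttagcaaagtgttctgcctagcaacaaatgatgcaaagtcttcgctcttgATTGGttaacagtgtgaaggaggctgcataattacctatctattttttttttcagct
These are chr17:34287824-34287943 on the minus strand for *H2-Aa*, and chr17:34305747-34305866, chr17:34153071-34153190 and chr17:34238785-34238904 on the plus strand for the others. The motif begins 48, 59, 61 and 57 bases before the start. Of the 11 genes of the list 9 had a promoter window of 250 bases before to 50 after the start, and 8 of these held ATTGG on the gene strand, against 24.6% of the windows of 27025 symbols, or 41.1% with both strands counted. The match describes the letters and not binding, and both the classical and the accessory pair hold it.

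Class II levels showed no single direction between cDC1 and *Cd209a* cells. The paired edgeR fit tested 10 of the 11 genes, with 4 higher in cDC1, at a median of -0.13. Of the 10, 1 had an unadjusted p below 0.05 and none was called. In replicate 6, 8 of 11 genes were higher in cDC1, at a median of 0.48, against 49.1% of all genes. In the summed other libraries 2 of 11 were, at a median of -0.44, against 46.2% of all genes. In the mean difference over 3 lungs 2 of 11 were, at a median of -0.27, against 48.7%. Those lungs include replicate 6 again, and replicate 4, where 4 of the 6 cDC1 were cells with plasmacytoid markers.

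The tissues could be compared between 2 primary tumor and 4 unchallenged lung libraries with at least 10 dendritic cells, which asks how dendritic cells of the tumor differ from those of a lung without a tumor. It is at the same time a comparison of skin and lung. In edgeR's quasi-likelihood test on the summed counts none of 2315 genes was called (background 0%). At an unadjusted p below 0.05 there were 170, with 65 higher in primary tumor, and DESeq2 called 2, *Dct* and *Uap1*, where *Uap1*, a gene of amino sugar synthesis, was named after its value was seen.

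Glycolysis genes leaned to the primary tumor dendritic cells, without a call. Of the 13 genes of the hypoxia and glycolysis list 11 had the higher mean log2(CPM + 50) in primary tumor, at a median difference of 0.68 against -0.03 over all 14731 genes with a UMI, of which 36.6% were higher. The filter on low counts kept 7 of the 13, all 7 higher, where 49.3% of all 2315 genes tested were higher. An unadjusted edgeR p below 0.05 was found for 6 of the 7. *Ldha*, the lactate dehydrogenase gene (chromosome 7, 46841475 to 46855627), measured 488 and 578 CPM in primary tumor replicates 1-3 and 4 and 249, 172, 142 and 226 CPM in the lungs. Its log2 fold change was 1.39 ± 0.35 (SE, edgeR adjusted p = 0.557). *Pgk1*, phosphoglycerate kinase, measured 244 and 231 CPM against 76.5, 78.7, 78.2 and 120.5 CPM, and *Gapdh* 1045 and 716 CPM against 421, 422, 411 and 428 CPM. In these 3 genes both primary tumor values lay above all 4 lungs, and none passed after adjustment. The share of all 2315 tested genes separated in this way was not counted, so the separation has no background here. Their names place replicate 1-3 and lung replicate 1 in run 1 and both replicates 4 in run 2, without saying what a run is, and *Ldha* was higher in the primary tumor of either run, at 488 against 249 CPM and 578 against 172 CPM. With the run as a term, a setting added after seeing the data, no gene was called and 112 had an unadjusted edgeR p below 0.05.

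*Pkm*, the last kinase of the pathway, and *Eno1*, enolase, had log2 fold changes of 1.10 ± 0.33 and 1.12 ± 0.38, *Aldoa*, aldolase, 0.91 ± 0.39 and *Hif1a*, the hypoxia factor gene, 0.78 ± 0.48. The ranges of *Hif1a* overlapped, at 149 and 208 CPM against 63.5 to 172 CPM. *Dct*, a melanin enzyme that dendritic cells do not make, moved with the list at 231 and 162 CPM against 0, 0, 4.9 and 7.8 CPM. The 8 melanoma markers summed to 298 and 208 CPM in primary tumor dendritic cells, at 0 to 13.6 CPM in the lungs and at 685 CPM in the 10 metastasis cells. The 10 metastasis cells had 196 CPM of *Ldha* on 12 UMIs and 97.9 CPM of *Pgk1* on 6, within the lung range. The part of melanoma RNA in the glycolysis values was not tested.

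**Figure D5:**
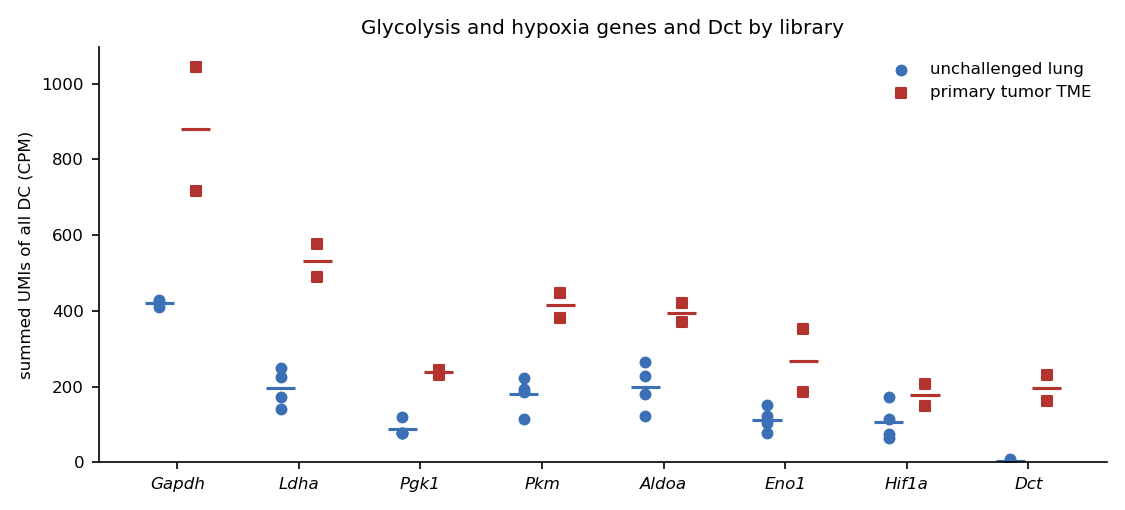
Glycolysis and hypoxia genes and *Dct* in all dendritic cells of a library, in CPM (vertical axis from 0), with 1 point per library of unchallenged lung (circles) and primary tumor TME (squares) and a line at each mean. The primary tumor points of *Ldha*, *Pgk1* and *Gapdh* lie above those of all 4 lungs, as do those of the melanoma gene *Dct*, while those of *Hif1a* overlap. The share of all tested genes separated in this way was not counted.

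The other lists were counted in the same way, with every member. The background was 36.6% higher in primary tumor over all genes with a UMI, and 49.3% over the 2315 genes that passed the filter on low counts. MHC class II genes were higher in primary tumor for 9 of 11, at a median of 0.39 with none at an unadjusted p below 0.05, and *H2-Aa* measured 4897 and 5061 CPM against 5162, 3393, 3851 and 3377 CPM, so its groups overlapped. Mature programme genes were higher for 21 of 35, at a median of 0.17, and chemokines and receptors for 7 of 17, at -0.35. The cDC1 programme gave 15 of 19 higher, the cDC2 programme 7 of 20, immediate early and heat shock genes 11 of 16, MHC class I presentation 8 of 12, growth factor receptors and transcription factors 12 of 16, interferon response genes 7 of 15 and cell cycle genes 10 of 15. None of those tested was called. The sums hold all classes together, so their mix enters these values.

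Within cDC1 alone, with at least 5 cells per library, 1 of 844 genes (0.118%) was called. *Cybb*, the catalytic subunit of the phagocyte NADPH oxidase (chromosome X, 9435252 to 9487771), had no UMI among the 63706 UMIs of the 17 primary tumor cDC1. In the 100 lung cDC1 it had 279 of 438028, with 1094, 445 and 583 CPM in replicates 4, 5 and 6. Against a floor of 3 counts over the group, which is 47.1 CPM, the gene was at least 13.5-fold lower in primary tumor (edgeR adjusted p = 0.0476). This setting was added after seeing the data, and *Cybb* was not called with all classes summed. The call was lost without either primary tumor library, which leaves 1 in that group, assumed to vary like the lungs (edgeR adjusted p = 0.764 without replicate 1-3 and 0.213 without replicate 4), and it held without each lung in turn (edgeR adjusted p from 0.0104 to 0.0455). Without primary tumor replicate 4 the remaining 16409 UMIs allow 183 CPM, and the gene was at least 3.48-fold lower. In the same cells 15 of 19 cDC1 programme genes had the higher mean log2(CPM + 50) in primary tumor, at a median difference of 0.89 against -0.06 over all 13363 genes with a UMI, of which 32.7% were higher, with *Wdfy4* at 2072 and 1184 CPM against 149, 929 and 610 CPM. The cDC2 programme went the other way, with 4 of 20 higher and 5 at least 2-fold lower, at a median of -0.68, as did chemokines and receptors with 3 of 17, at -0.42. These genes of other classes moved with *Cybb*, and the part of a less pure class in the lung cDC1 was not tested. Of the hypoxia and glycolysis list 8 of 13 were higher, at a median of 0.14. The filter on low counts kept 5 of the 13, all 5 higher, at a median log2 fold change of 1.26. Of these, 3 had an unadjusted edgeR p below 0.05 and none was called. The lung cDC1 of replicate 4, mostly cells with plasmacytoid markers, enter these medians. The migration receptor gene *Ccr2* measured 60.9 and 169 CPM against 331, 1199 and 755 CPM, without overlap and without a call (log2 fold change -2.49 ± 0.75, edgeR adjusted p = 0.222). Without lung replicate 4 it was called, at -2.83 ± 0.61 (edgeR adjusted p = 0.0271). In that fit 11 of 704 genes were called, and 3 of 804 and 2 of 705 without lung replicate 5 or 6. The number of genes called in cDC1 thus depended on single libraries.

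The shares of the classes were compared between the tissues in a design whose smallest possible p is 0.0667. cDC1 made up 57.4 ± 10.4% (SD, n = 2) of the dendritic cells of primary tumors and 41.6 ± 14.5% (n = 4) of those of unchallenged lungs, a difference of 15.7 points (two-sided exact permutation p = 0.267, adjusted over 4 classes 0.667). *Cd209a* cells made up 22.5 ± 15.3% and 29.1 ± 16.5% (exact permutation p = 0.6, adjusted 0.8), and *Fscn1*/*Ccl22* cells 8.82 ± 12.5% and 11.5 ± 12.9% (exact permutation p = 0.933, adjusted 0.933). Cells of 2 classes made up 11.3 ± 7.63% and 17.8 ± 5.93% (exact permutation p = 0.333, adjusted 0.667). The cDC1 difference ran from 8.35 points without primary tumor replicate 4 to 23.1 without primary tumor replicate 1-3, and was 7.61 with cells of 2 classes assigned in a fixed order. Single libraries varied widely, with *Fscn1*/*Ccl22* cells at 0% of 12 and of 14 cells in primary tumor replicate 1-3 and unchallenged lung replicate 4, and at 30% of 10 in unchallenged lung replicate 1.

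A UMI of *Mki67* or *Top2a*, genes of dividing cells, was found in 11 of 230 dendritic cells thinned to 1000 UMIs, or 4.78% (exact binomial 95% interval 2.41 to 8.40%), and in 27 of 238 before thinning, or 11.3%. In replicate 6 of unchallenged lung it was found in 2 of 85 cDC1 and 2 of 29 *Cd209a* cells, while 2.07% of endothelial cells thinned alike had one. In the other libraries together it was found in 5 of 37 cDC1 and 0 of 28 *Cd209a* cells thinned alike, the latter allowing up to 10.7%, and in 12 and 0 before thinning. Of 15 cell cycle genes 13 were higher in cDC1 than in *Cd209a* cells of those libraries, at a median of 0.55, where 46.2% of all genes were higher. In replicate 6 it was 1 of 15, at a median of -0.21, where 49.1% of all genes were higher. Only 3 of the 15 averaged 50 CPM or more in replicate 6, so the order of the classes there rests on few UMIs. The sum of the other libraries mixes tissues unevenly, as primary tumors gave 17 of its 37 cDC1 and 6 of its 28 *Cd209a* cells. The part of tissue and library in the order of the classes was not tested. Only replicate 6 had at least 10 thinned cells of both classes, so no test was made.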

How the data were processed

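Single cells were profiled with 10x Genomics 3′ chemistry. Per the labels and the methods, the authors made the deposited counts with Cell Ranger 6.1.1 on GRCm38 and removed cells by quantile limits on detected genes and on ribosomal and mitochondrial content. These are raw UMI counts per gene and cell. Columns deposited beside them give mitochondrial and ribosomal content as a percent of each cell's counts, and a table of normalized values was not used. Of 24 library names, 1 could not be mapped to a sample and was not used, and 4 TME names identical to another were dropped, so 12 samples of 15 names remained. Names differ from the labels in some replicate numbers.

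The members and gene lists were chosen with earlier results of these data known. Counts were summed per library, or per class and library, over cells of the classes, and CPM are UMIs of a gene per 1000000 UMIs of those cells. Sums were tested with edgeR 4.0.16 (filterByExpr, TMM, quasi-likelihood F test, Benjamini-Hochberg over all genes, called at adjusted p below 0.05) in R 4.3.3. The subset comparison was planned on sums of at least 10 cells, which left 1 library with both classes, so a minimum of 5 was used, and a comparison of *Cd209a* cells between tissues could not be made. DESeq2 1.42.0 was the alternative. Shares were compared by exact permutation of library labels. The edgeR scripts were tested on simulated counts. With 1 library, classes were compared on log2(CPM + 50) over genes with a mean of at least 50 CPM. Gene lists were counted over every member in the files, with no filter. Thinned shares used 1000 UMIs per cell, and 8 shallower members were left out. Limits at 0 are 3 counts, and intervals are exact at 95%. Named genes are those of the lists, called genes with at least 50 CPM and no overlap between groups, and in the single library those of largest difference. Positions are from GENCODE vM21 on GRCm38.p6, promoters from RefSeq. Python 3.11.15, numpy 2.4.6, scipy 1.17.1, pandas 2.3.3 and matplotlib 3.10.9 were used.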

Additional observations from a re-analysis of the deposited data

Results flagged for a closer look

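Most of 34 tests were over the 4 lungs, and the rest over the dendritic cell shares of the tumor site libraries. In them 5 values, all of unchallenged lung replicate 6, lay farther from the other 3 lungs than Dixon's 95% limit allows. Chance alone flags about 1 in 20. Its dendritic cells held 8.90% cells of 2 classes against 20 to 21.4% in the others. They carried 1962 CPM of alveolar macrophage markers (others 14.3 to 153), 984 CPM of ciliated cell markers (others 35.8 to 127) and 3573 CPM of neutrophil markers (others 21.5 to 210). *Pgk1* stood at 120.5 CPM, where the others had 76.5 to 78.7 CPM.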

How the results depend on the processing

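Over the planned and added settings, the tissue comparison, which called 0 genes, called 2 with DESeq2, 60 without a filter on low counts (16 higher, 44 lower), 1 without cells of high UMI totals, 1 in cDC1 alone and 0 to 2 with each library left out (2 without primary tumor replicate 1-3, 1 without primary tumor replicate 4, 0 without any lung). The comparison of cDC1 with *Cd209a* cells, which also called 0, called 37 without a filter (19 higher, 18 lower), 16 with no library term, 57 where a class needed 2 UMIs (26 higher, 31 lower), 5 without cells of high UMI totals, 59 without the cells with plasmacytoid markers and 7 to 35 with each lung left out (7, 22 and 35 without replicates 4, 5 and 6). DESeq2 size factors gave 0 in both. In cDC1 alone the tissue comparison called 11, 3 and 2 genes without lung replicate 4, 5 or 6. The settings with fewer cells or other genes tested change what enters the fit, and the cause of the differences was not tested. The primary tumor minus lung difference in the share of *Cd209a* cells ran from -17.4 to 4.19 points with each library left out, positive without primary tumor replicate 4, and that of *Fscn1*/*Ccl22* cells from -11.5 to 6.20, at 6.20 without primary tumor replicate 1-3, 3.56 without lung replicate 1 and 1.12 without cells of high UMI totals. The rule chose 79 cells after thinning to 1000 UMIs, 90 with at least 2 *Flt3* UMIs and 150 with at least 2 UMIs of the positive genes, and cells with a UMI of *Mki67* or *Top2a* made up 11.3% before thinning (endothelial cells of lung replicate 6: 2.53%). Of the other values, 49 of the summary values stayed on their side, and of those of single genes and lists 228 did, 46 passed the threshold only under an alternative, 2 (*Cybb* in cDC1 without either primary tumor library) lost it and 6 moved. No paired analysis was possible because the library names give different mice for the fitted primary tumor and lung libraries, also where a replicate number is shared. A fit with the run of the library names as a term called 0 genes in the tissue comparison. Not run, for want of libraries with enough cells of both groups, were a minimum of 20 cells, a single run, an equal mix of classes, the tissue comparison within *Cd209a* cells with its alternatives, and thinned shares. On simulated counts the tissue test, run on 2609 genes, called 15.1% of the 4-fold and 55.6% of the 8-fold changes tested. The test of cDC1 against *Cd209a* cells, on 1961 genes, called 3.64% and 50.8%. The simulation gave every gene the same dispersion, set by hand, and no difference between libraries beyond depth. Most 4-fold changes were thus missed under that setting, and the rates in the real counts were not measured.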
